A study of Mus musculus with 6 samples.

Results

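The hypoxia-inducible factor (HIF) subunits Hif1a and Epas1 and 8 genes of the hypoxia response (Egln1, Egln3, Bnip3, Bnip3l, Ndrg1, P4ha1, P4ha2 and Ankrd37) were taken by symbol from the 30281 gene symbols of the deposited table, and all 10 were found. The 6 mouse libraries comprised 1 library of mouse embryo fibroblasts (MEFs) with the genotype Tsc2-/- p53-/-, 1 of Tsc2+/+ p53-/- MEFs, and 1 untreated and 1 rapamycin library of each of the kidney epithelial lines MKOC and TJ. Both kidney lines are labelled Tsc2-null, and TJ is labelled as derived from a secondary tumor in C57BL6 mice. The label protocol gives 18 h with diluent or 100 nM rapamycin, an inhibitor of mTORC1, in serum-free DMEM with 0.1% BSA, and the MEFs carry the treatment label none. The labels give no oxygen level, no number of cultures and no clone for any line, and every library stands alone for its line and condition.

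A HIF transcription factor pairs an alpha subunit, whose stability depends on oxygen, with the partner ARNT. When oxygen is present, EGLN prolyl hydroxylases modify the alpha subunit, and the VHL ubiquitin ligase then marks it for degradation; when oxygen is scarce, the pair accumulates and drives genes of glycolysis, angiogenesis, mitophagy and matrix formation. TSC2 restrains mTORC1, and mTORC1 is known to raise both the amount of HIF-alpha and the output of its target genes.

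The libraries held between 22887020 and 37505004 estimated counts. Tsc2 RNA was present in every library: 22.6 TPM (Kallisto's length-scaled level, summed over the transcripts of a symbol) in the Tsc2+/+ library against 10.5 TPM in the MEF library labelled Tsc2-/-. In the kidney lines labelled Tsc2-null it stood at 49.1 TPM in untreated and 19.5 TPM in rapamycin-treated MKOC cells, and at 44.0 and 19.1 TPM in TJ cells, so the summed RNA did not check these labels. Trp53 RNA was present in both MEF libraries labelled p53-/- at 26.3 and 28.5 TPM. Of the 10 fibroblast markers, 7 reached 1 TPM in Tsc2+/+ MEFs and 9 in Tsc2-/- MEFs, against 2 or 3 in the kidney libraries, whose summed marker TPM came almost wholly from Vim. Of the 10 kidney epithelial markers, 8 reached 1 TPM in each kidney library, 2 in Tsc2-/- MEFs and 0 in Tsc2+/+ MEFs. The defining epithelial marker Epcam stayed near 0 in the kidney libraries. Transcripts under 300 bases took 20.9% of TPM in Tsc2+/+ MEFs and between 4.09% and 7.998% elsewhere, and over the 7377 genes with at least 10 TPM in both MEF libraries TPM in Tsc2-/- cells had a median ratio of 1.31 to that in Tsc2+/+ cells (log2 0.39). MEF differences are therefore also given after scaling to a median ratio of 1.

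The 4 genes that were both at least 2-fold higher in Tsc2-/- MEFs by TPM and lower with rapamycin, Hif1a (1.63-fold in the MEFs after scaling), Egln3, Bnip3 and P4ha2, are shown with the bases before their RefSeq start on the gene's strand (GRCm38.p6), since short HIF-type motifs can be looked for there. The Hif1a stretch lies at chr12:73907617-73907866 on the plus strand, Egln3 at chr12:54203875-54204124 on the minus strand, Bnip3 at chr7:138909520-138909756 on the minus strand, where the 13 bases next to the start lie in an annotated exon and are left out, and P4ha2 at chr11:54100674-54100923 on the plus strand. Capitals mark ACGTG or GCGTG on either strand, the core letters of a hypoxia response element, and overlapping matches run together.
Hif1a: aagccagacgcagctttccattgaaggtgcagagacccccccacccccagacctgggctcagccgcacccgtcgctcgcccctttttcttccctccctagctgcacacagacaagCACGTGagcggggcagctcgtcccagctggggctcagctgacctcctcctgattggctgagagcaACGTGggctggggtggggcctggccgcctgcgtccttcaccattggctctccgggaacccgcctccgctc
Egln3: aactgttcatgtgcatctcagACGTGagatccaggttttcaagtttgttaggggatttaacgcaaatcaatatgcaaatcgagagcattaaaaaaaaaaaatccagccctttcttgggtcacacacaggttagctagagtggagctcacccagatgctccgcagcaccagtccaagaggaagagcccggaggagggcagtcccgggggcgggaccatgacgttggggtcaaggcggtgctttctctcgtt
Bnip3: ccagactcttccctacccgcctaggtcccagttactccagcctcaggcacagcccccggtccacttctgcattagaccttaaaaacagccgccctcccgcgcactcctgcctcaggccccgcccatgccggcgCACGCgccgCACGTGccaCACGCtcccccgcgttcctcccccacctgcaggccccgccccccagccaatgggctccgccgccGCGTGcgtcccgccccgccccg
P4ha2: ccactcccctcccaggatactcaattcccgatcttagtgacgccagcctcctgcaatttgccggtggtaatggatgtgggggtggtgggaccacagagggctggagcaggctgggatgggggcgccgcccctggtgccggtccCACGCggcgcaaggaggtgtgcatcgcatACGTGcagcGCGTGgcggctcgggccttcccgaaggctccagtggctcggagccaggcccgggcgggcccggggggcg
The RefSeq promoter set held a window for 7 of the 10 genes, and all 7 had at least 1 of these motifs in the 250 bases before the start, against 12678 of 32841 windows (38.6%) of the whole set. At least 2 motifs were present in 6 of the 7, against 16.73% of all windows and 32.79% of those with at least 10 CpG. The motifs hold CpG, and the windows of these genes had between 10 and 51 CpG; of the 12416 windows with at least 10 CpG, 64.21% held a motif. Bnip3 had the most, 5, of which the nearest began 35 bases upstream of the start, counted with the 13 bases left out above. Hif1a had 3, P4ha1 3, P4ha2 3, Ankrd37 4, Egln1 2 and Egln3 1. The letters CACGTG, present in Hif1a and Bnip3, hold a match on each strand and count as 2. Without bases that lie in an annotated exon, Ankrd37 had 3 and Egln1 had 1. These are matches of letters only, and binding was not measured.

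Hif1a, the broadly expressed oxygen-regulated subunit (ENSMUSG00000021109, chromosome 12, 73901375 to 73947530, plus strand of GRCm38), was read at 83.3 TPM in Tsc2+/+ MEFs, 178 TPM in Tsc2-/- MEFs, 225 TPM in untreated MKOC cells, 87.7 TPM in rapamycin-treated MKOC cells, 327 TPM in untreated TJ cells and 114 TPM in rapamycin-treated TJ cells. In unscaled TPM all 6 levels differed beyond their counting intervals, with untreated TJ cells highest and Tsc2+/+ MEFs lowest. The lowest place depended on the scale. In CPM (estimated counts scaled to library size only), Hif1a stood at 299 in Tsc2+/+ MEFs and at 256 in rapamycin-treated MKOC cells, which were then lowest. Its RNA fell with rapamycin by 1.46 on the log2 scale (SE 0.105, adjusted p = 1.54e-05 by edgeR's quasi-likelihood test with the line as a term). The fall was 1.36 in MKOC and 1.56 in TJ cells, each on the log2 scale. In bulk libraries, fewer cells of a type and less RNA per cell cannot be told apart, here and below.

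Hif1a reads fell on a pair of coding transcripts that start at different first exons. ENSMUST00000110461 starts in the exon at 73901375 to 73901498 and ENSMUST00000021530 in the exon at 73907904 to 73908324, just after the promoter stretch printed above. The second took 44.5% of the Hif1a counts in Tsc2+/+ MEFs, 51.1% in Tsc2-/- MEFs, 43.8% and 49.1% in MKOC cells without and with rapamycin, and 45.8% and 49.8% in TJ cells. Both transcripts therefore stood near equal shares in every library. With rapamycin, ENSMUST00000021530 went from 92.4 to 40.6 TPM in MKOC and from 142 to 52.6 TPM in TJ cells, and ENSMUST00000110461 from 127 to 45.2 TPM and from 181 to 57.0 TPM.

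Epas1, which encodes the alpha subunit HIF-2alpha and is best known in endothelial and kidney cells (ENSMUSG00000024140, chromosome 17, 86753700 to 86833410, plus strand), was below 1 TPM in all 6 libraries. It had 2.01 estimated counts in Tsc2+/+ MEFs (0.0124 TPM), 20.2 in Tsc2-/- MEFs (0.254 TPM), 44.0 and 14.0 in MKOC cells without and with rapamycin (0.426 and 0.175 TPM), and 54.9 and 44.9 in TJ cells (0.593 and 0.482 TPM). The counting intervals of neighbours in this order overlapped, except between the lowest library, Tsc2+/+ MEFs, and the next. The ratio of Tsc2-/- to Tsc2+/+ MEFs was 20.5 with a counting interval of 4.998 to 180. The rapamycin change did not pass the test (log2 fold change -0.72, SE 0.369, adjusted p = 0.158), and the line values were -1.29 in MKOC and -0.30 in TJ cells. The third alpha subunit, Hif3a, reached at most 0.125 TPM in any library, so Hif1a made up nearly all alpha subunit RNA per length in these libraries.

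Egln1 encodes PHD2, the main oxygen-sensing hydroxylase of HIF-alpha (ENSMUSG00000031987, chromosome 8, 124908587 to 124949324, minus strand). It was read at 18.8 TPM in Tsc2+/+ MEFs, 29.97 TPM in Tsc2-/- MEFs, 45.7 and 30.9 TPM in MKOC cells without and with rapamycin, and 49.4 and 36.7 TPM in TJ cells. Rapamycin-treated MKOC cells and Tsc2-/- MEFs did not differ beyond their counting intervals, and the other neighbours in the order did. Egln1 fell with rapamycin by 0.50 on the log2 scale (SE 0.105, adjusted p = 0.00472, edgeR), by 0.57 in MKOC and 0.43 in TJ cells.

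Egln3 encodes PHD3, a hydroxylase that is itself a strong hypoxia-induced gene (ENSMUSG00000035105, chromosome 12, 54178981 to 54203860, minus strand). Tsc2+/+ MEFs had 0 counts of it, a level of up to 0.0385 TPM at the floor of 3 counts, whereas Tsc2-/- MEFs had 396 counts, or 10.3 TPM. In the kidney lines it stood at 60.0 TPM in untreated and 16.3 TPM in treated MKOC cells, and at 89.4 and 24.6 TPM in TJ cells. Egln3 had the widest range of the 10 genes, from no counts in one MEF library to the level of a well expressed gene in untreated TJ cells. In unscaled TPM, the value of Egln3 in Tsc2-/- MEFs was 268 times the floor of 3 counts in Tsc2+/+ MEFs. The counting interval in Tsc2-/- MEFs began at 9.34 TPM, so 268 is not a lower bound. It fell with rapamycin by 1.88 on the log2 scale (SE 0.107, adjusted p = 5.03e-06, edgeR), by 1.89 in MKOC and 1.87 in TJ cells. Egln2, the third paralog and no member of the group, ran from 20.3 TPM in Tsc2+/+ MEFs to 45.2 TPM in Tsc2-/- MEFs and rose with rapamycin by 0.39 on the log2 scale (SE 0.125, adjusted p = 0.0359, edgeR), so the 3 EGLN genes did not change in one direction.

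**Figure D1:**
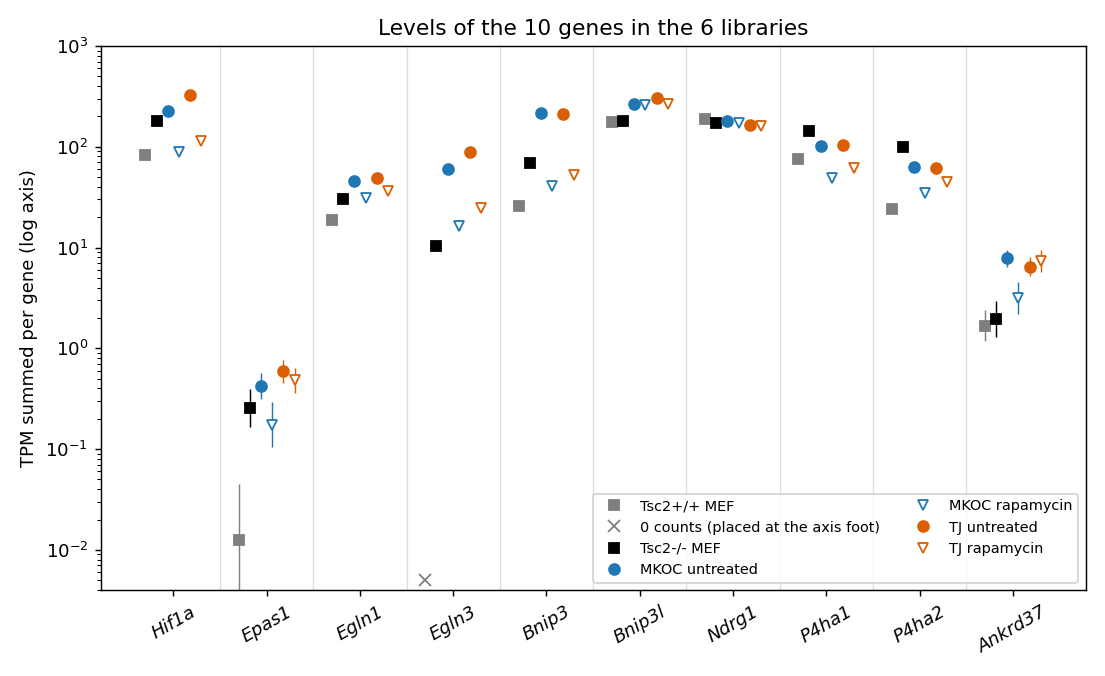
Summed TPM of each of the 10 genes (log axis) in the 6 libraries, 1 point per library, with 95% counting intervals as bars; the cross stands for 0 counts. Egln3 runs from 0 to 89.4 TPM, Epas1 stays below 1 TPM, and Ndrg1 lies between 160 and 188 TPM in every library.

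Bnip3, a mitophagy receptor of the outer mitochondrial membrane (ENSMUSG00000078566, chromosome 7, 138890836 to 138909519, minus strand), was read at 25.7 TPM in Tsc2+/+ MEFs, 68.7 TPM in Tsc2-/- MEFs, 214 TPM in untreated and 40.6 TPM in treated MKOC cells, and 213.5 TPM in untreated and 52.8 TPM in treated TJ cells. The untreated kidney lines were highest and did not differ beyond their counting intervals, and both treated libraries lay below Tsc2-/- MEFs. Bnip3 fell with rapamycin by 2.26 on the log2 scale (SE 0.115, adjusted p = 3.85e-06, edgeR), the largest fall of the 10. The fall was 2.43 in MKOC and 2.10 in TJ cells, and the counting intervals of these line values (-2.53 to -2.33 and -2.19 to -2.01) did not overlap. One coding transcript, ENSMUST00000106112, took between 92.4% and 98.3% of its counts.

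Bnip3l (Nix), the related mitophagy receptor known from red cell maturation (ENSMUSG00000022051, chromosome 14, 66985239 to 67008877, minus strand), varied little. Its summed TPM was 177 in Tsc2+/+ MEFs, 179 in Tsc2-/- MEFs, 265 and 256 in MKOC cells without and with rapamycin, and 307 and 267 in TJ cells. The 2 MEF libraries did not differ beyond their counting intervals. The fall with rapamycin was 0.27 on the log2 scale (SE 0.0952, adjusted p = 0.0482, edgeR), and the call was lost under 6 of the alternatives, with adjusted p from 0.0554 to 0.379 among them. The coding transcript ENSMUST00000022634 held between 57.2% and 71.9% of the Bnip3l counts but between 16.4% and 27.1% of its summed TPM, because short transcripts without a coding call receive more TPM per count. That coding transcript was read at 42.1 TPM in Tsc2+/+ and 48.6 TPM in Tsc2-/- MEFs, at 59.3 and 42.0 TPM in MKOC cells without and with rapamycin, and at 62.6 and 51.0 TPM in TJ cells.

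Ndrg1, a hypoxia- and stress-induced cytoplasmic protein (ENSMUSG00000005125, chromosome 15, 66929318 to 66969640, minus strand), was the most even of the 10. It was read at 188 TPM in Tsc2+/+ MEFs, 171 TPM in Tsc2-/- MEFs, 179 and 174 TPM in MKOC cells without and with rapamycin, and 163 and 160 TPM in TJ cells. In unscaled TPM its highest library was 1.18 times its lowest, and it was the one gene of the group whose level was highest in Tsc2+/+ MEFs. In CPM it ran wider, from 291 in treated TJ cells to 425 in Tsc2+/+ MEFs. Its MEF ratio after scaling was 0.694. The rapamycin change did not pass the test (log2 fold change -0.05, SE 0.0953, adjusted p = 0.741, edgeR), with counting intervals of the line values from -0.09 to 0.00 in both lines. Of its relatives, Ndrg3, which reached 91.0 TPM, and Ndrg4, which reached 46.5 TPM, were not called either (log2 fold change -0.26, adjusted p = 0.0696, and -0.23, adjusted p = 0.193, edgeR). Ndrg2 was called lower with rapamycin (-0.86, SE 0.123, adjusted p = 0.000653, edgeR), from 23.2 to 12.4 TPM in MKOC and from 25.9 to 14.9 TPM in TJ cells. The differences between the paralogs were not tested.

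P4ha1 and P4ha2 encode catalytic subunits of collagen prolyl 4-hydroxylase, which stabilizes the collagen triple helix. P4ha1 (ENSMUSG00000019916, chromosome 10, 59323296 to 59373304, plus strand) was read at 75.9 TPM in Tsc2+/+ MEFs, 143 TPM in Tsc2-/- MEFs, 103 and 48.8 TPM in MKOC cells without and with rapamycin, and 103 and 61.5 TPM in TJ cells. P4ha2 (ENSMUSG00000018906, chromosome 11, 54100095 to 54131665, plus strand) was read at 24.0 TPM in Tsc2+/+ MEFs, 99.7 TPM in Tsc2-/- MEFs, 63.2 and 34.97 TPM in MKOC cells, and 62.0 and 45.0 TPM in TJ cells. For both genes Tsc2-/- MEFs were highest, and the untreated kidney lines did not differ beyond their counting intervals. P4ha1 fell with rapamycin by 0.90 on the log2 scale (SE 0.109, adjusted p = 0.000266, edgeR), by 1.06 in MKOC and 0.74 in TJ cells. P4ha2 fell by 0.62 (SE 0.120, adjusted p = 0.00327, edgeR), by 0.80 in MKOC and 0.44 in TJ cells. The third catalytic subunit, P4ha3, reached at most 2.999 TPM, in Tsc2-/- MEFs, and the beta subunit P4hb, also a general disulfide isomerase, lay between 232 and 693 TPM and was not called (log2 fold change -0.24, adjusted p = 0.0866, edgeR).

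The P4ha2 reads were divided mainly between a pair of coding transcripts with mutually exclusive exons: ENSMUST00000093107 carries a 60-base exon at 54126238 to 54126297 and ENSMUST00000019050 a 66-base exon at 54126346 to 54126411. The 66-base form took 33.9% of P4ha2 counts in Tsc2+/+ cells, against 22.5% in Tsc2-/- cells. It took 32.7% in untreated and 19.2% in treated MKOC cells, and 39.1% and 26.5% in TJ cells, so its share was lower with rapamycin in both lines. Its level went from 19.0 to 6.46 TPM in MKOC and from 22.3 to 11.2 TPM in TJ cells, while the 60-base form went from 30.6 to 23.3 TPM and from 27.0 to 26.6 TPM. In edgeR's fit over 32860 transcripts, the log2 fold change was -1.31 (SE 0.223) for the 66-base and -0.25 (SE 0.154) for the 60-base form. That fit called 0 transcripts of any gene, with 5770 at an unadjusted p under 0.05 and 0.171 as the lowest adjusted p, so it settles nothing about either form, and the difference between the forms was not tested. Kallisto divides reads between transcripts that share exons, and that error is not part of the counting intervals.

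Ankrd37, a small ankyrin repeat protein gene and a known HIF target (ENSMUSG00000050914, chromosome 8, 45996902 to 46005707, minus strand), was low. It was read at 1.68 TPM in Tsc2+/+ MEFs, 1.96 TPM in Tsc2-/- MEFs, 7.79 and 3.15 TPM in MKOC cells without and with rapamycin, and 6.42 and 7.40 TPM in TJ cells, from 22 to 92 counts a library. The summed TPM was thus lower with rapamycin in MKOC cells, while in TJ cells the intervals of untreated (5.16 to 7.99) and treated (5.73 to 9.56) overlapped. On counts the change did not pass the test (log2 fold change -0.85, SE 0.324, adjusted p = 0.0652, edgeR). The line values on counts were -1.31 in MKOC and -0.45 in TJ cells. The one coding transcript, ENSMUST00000053558, behaved differently from the sum: it was read at 0.657 TPM in Tsc2+/+ and 1.72 TPM in Tsc2-/- MEFs, 4.68 and 0.808 TPM in MKOC cells without and with rapamycin, and 4.13 and 1.33 TPM in TJ cells. It was the lower of each pair with rapamycin in both lines. With sums over protein-coding transcripts only, an alternative chosen after the data were seen, Ankrd37 fell by 2.05 on the log2 scale (adjusted p = 0.00155, edgeR). The same transcript in the fit over all transcripts, which called none, had a log2 fold change of -2.12 (SE 0.512, adjusted p = 0.219).

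**Figure D2:**
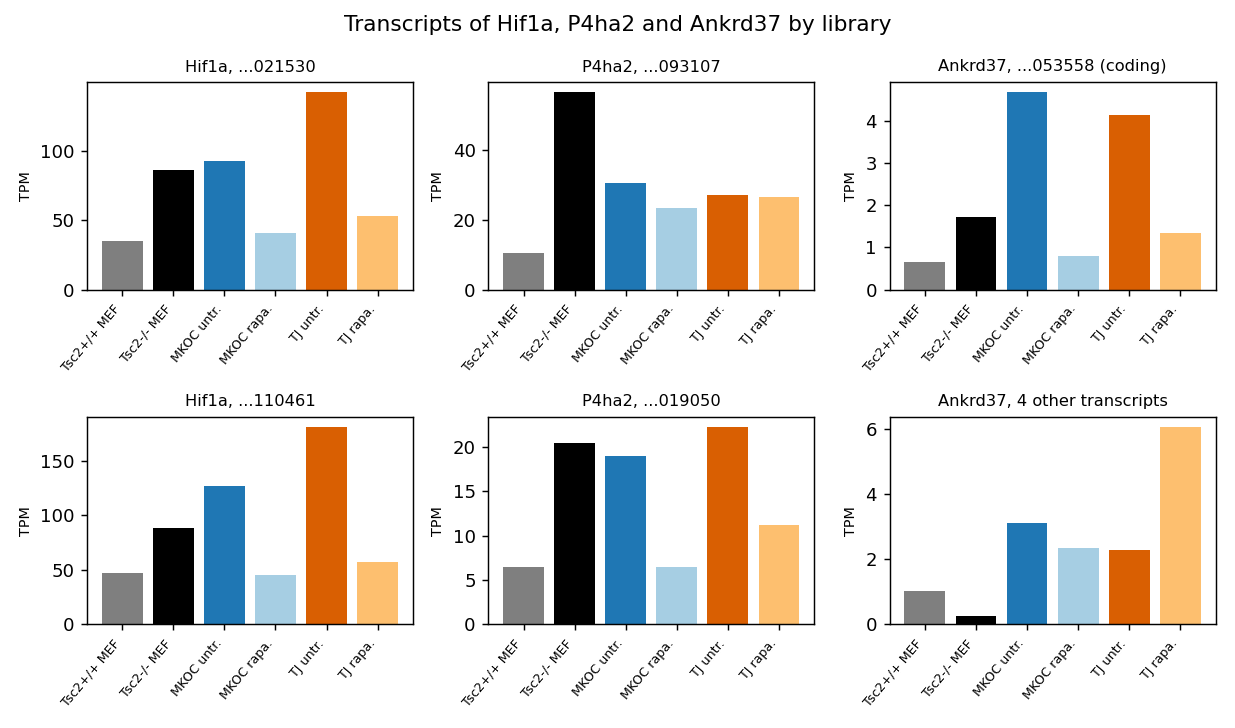
TPM (vertical axes, linear, each starting at 0) of a pair of Hif1a transcripts, a pair of P4ha2 transcripts, and the coding and the 4 other Ankrd37 transcripts in the 6 libraries, 1 bar per library without error bars. Both Hif1a transcripts and the coding Ankrd37 transcript are lower with rapamycin in both lines, while P4ha2 ENSMUST00000093107 goes from 27.0 to 26.6 TPM in TJ cells.

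Across the comparison of rapamycin with untreated kidney cells, 7 of the 10 genes were called lower at an adjusted p under 0.05 (Hif1a, Egln1, Egln3, Bnip3, Bnip3l, P4ha1 and P4ha2) and 0 higher, against 17.4% of the 12952 genes tested that were lower and 17.5% that were higher. The 3 others, Epas1, Ndrg1 and Ankrd37, did not pass. No member was higher at an unadjusted p under 0.05 (edgeR), and DESeq2 and limma called 0 higher as well. The median log2 fold change was -0.78 over the 10 genes and 0.02 over all genes tested. On counts all 10 were lower in both lines, against 4909 of the 12952 genes tested. In TJ cells the counting intervals of Epas1 (-0.91 to 0.29) and Ankrd37 (-0.97 to 0.05) held 0. The fall was larger in MKOC than in TJ cells for 7 of the 10, against 48.4% of the 4909 tested genes that were lower in both lines; 1 library per line and treatment gives no test of that difference. Without the line term, the replicate block, 4 genes were called lower (Hif1a, Egln3, Bnip3 and P4ha1). Without that term and without untreated MKOC, treated MKOC, untreated TJ or treated TJ cells, the count was 3, 3, 0 and 5, in fits that called 60, 291, 0 and 246 of all genes lower. The fit without untreated TJ cells thus called no gene at all in either direction. Some markers and library properties moved with rapamycin as well: 4 of 8 kidney epithelial markers tested, 3 of 9 fibroblast, 0 of 3 endothelial and 1 of 2 macrophage markers were called higher and 0 of any list lower. The summed kidney epithelial markers went from 1535 to 2197 TPM in MKOC and from 1743 to 2587 TPM in TJ cells, and the share of TPM in transcripts under 300 bases from 4.09% to 7.31% and from 5.69% to 7.998%. Their part in the result was not tested.

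**Figure D3:**
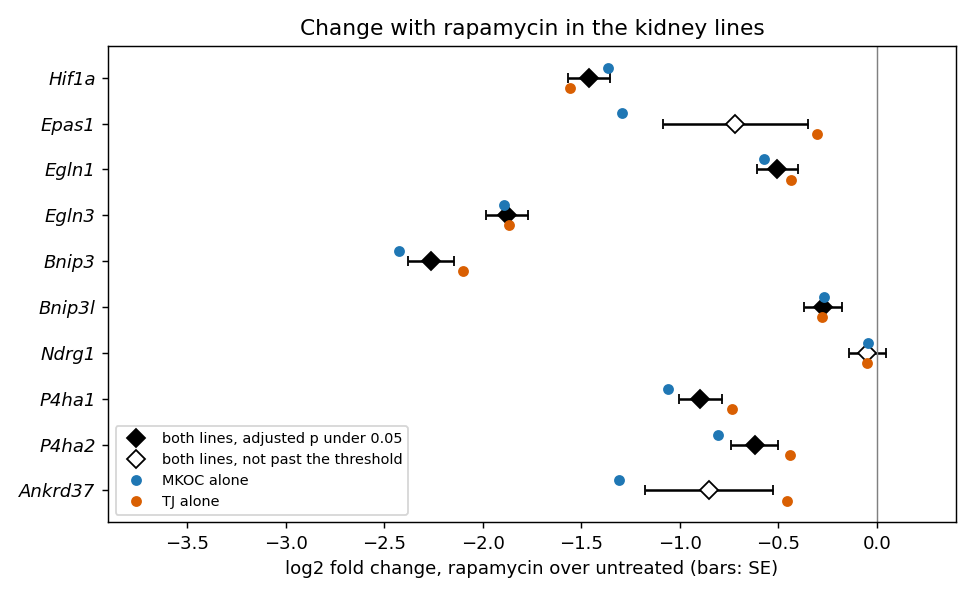
Log2 fold change of rapamycin over untreated cells for each of the 10 genes from the model over both lines (diamonds, bars ± SE, filled where adjusted p is under 0.05) and within MKOC and TJ cells alone (points). Bnip3, Egln3 and Hif1a lie farthest below 0, and Ndrg1 lies at -0.05.

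The comparison of Tsc2-/- with Tsc2+/+ MEFs has 1 library each and no test. With 1 TPM added, 4 of the 9 genes with at least 1 TPM in either library (all but Epas1) were at least 2-fold higher in Tsc2-/- MEFs (Hif1a, Egln3, Bnip3 and P4ha2) and 0 were 2-fold lower, against 25.2% higher and 5.18% lower of the 12771 genes that met this minimum. The TPM ratio was 2.14 for Hif1a (counting interval 2.08 to 2.19), 2.67 for Bnip3 (2.47 to 2.89) and 4.16 for P4ha2 (3.89 to 4.45). P4ha1 at 1.88 (1.82 to 1.95) and Egln1 at 1.59 (1.49 to 1.70) were higher by less, and Ndrg1 was at 0.908 (0.883 to 0.934). After scaling to a median ratio of 1, P4ha2 (3.11-fold) and Bnip3 (2.01-fold, both with 1 TPM added) were past 2-fold along with Egln3, whose 0 in Tsc2+/+ MEFs no scaling of that library can move. Hif1a then stood at 1.63-fold, P4ha1 at 1.43-fold, Egln1 at 1.21-fold and Ndrg1 at 0.694-fold, each with 1 TPM added. Over all genes the shares were then 17.1% higher and 8.72% lower. Bnip3l and Ankrd37 went from slightly above to below a ratio of 1 on scaling (log2 0.02 to -0.37 and 0.14 to -0.11). With CPM in place of TPM, 2 genes were 2-fold higher, Egln3 and P4ha2, and 0 lower, against 17.2% and 7.58% of all genes, so that count is near the background. The summed kidney epithelial markers also differed between the MEF libraries, at 0.253 TPM in Tsc2+/+ and 78.0 TPM in Tsc2-/- cells, as did the macrophage markers at 1.75 and 8.90 TPM and the endothelial markers at 1.03 and 4.33 TPM, and their part in the result was not tested.

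**Figure D4:**
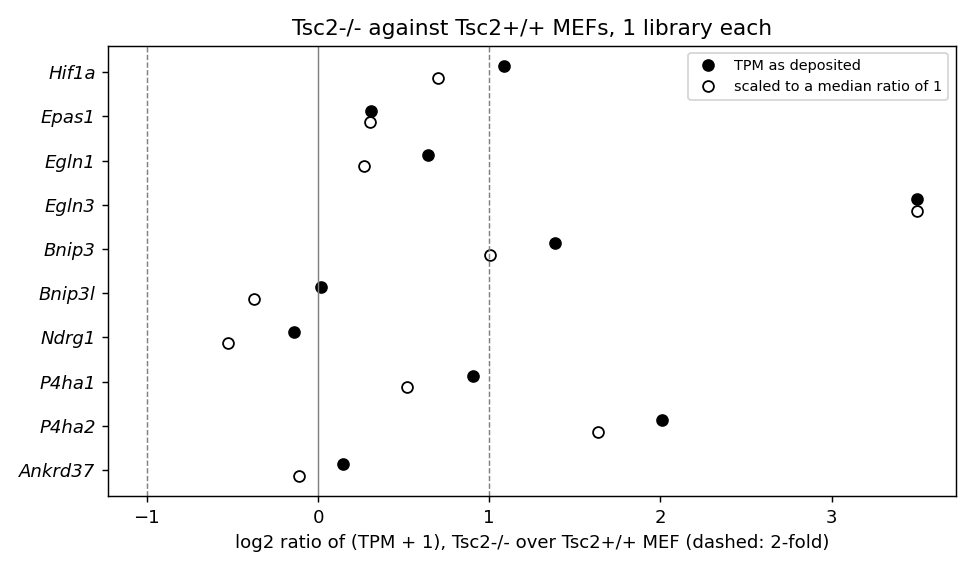
Log2 ratio of TPM with 1 added, Tsc2-/- over Tsc2+/+ MEFs, for the 10 genes from the deposited TPM (filled) and after scaling to a median ratio of 1 (open), with dashed lines at 2-fold. P4ha2 lies past 2-fold on both scales, Egln3 holds one value by construction (0 TPM in Tsc2+/+ MEFs), and Hif1a goes from 1.09 to 0.70.

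Of the 9 genes that could be called in both comparisons, 4 were at least 2-fold higher in Tsc2-/- MEFs and called lower with rapamycin (Hif1a, Egln3, Bnip3 and P4ha2), against 4.14% (475) of the 11462 genes in both. After scaling the count was 3, without Hif1a, against 2.20%, and it was the same 3 genes without transcripts under 300 bases, against 2.94%. With CPM it was 2, Egln3 and P4ha2, against 2.33%. These comparisons share no library. Between the kidney lines, 0 of the 9 genes with at least 1 TPM (again all but Epas1) were at least 2-fold higher or lower in TJ than in MKOC cells in both treatments, against 0.959% of 12414 genes that were higher and 0.314% that were lower. In edgeR's fit of the 4 kidney libraries, a test of the line term that was added after the data were seen called Egln3 (log2 0.57, SE 0.105, adjusted p = 0.00962) and Hif1a (log2 0.44, SE 0.104, adjusted p = 0.0284) higher in TJ than in MKOC cells, and 0 of the 10 lower, against 5.48% of the 12952 genes higher and 3.32% lower. In that test the untreated and the treated library of a line were its only replicates. At an unadjusted p under 0.05, 3 members were higher, with Epas1 as the third (log2 0.87, adjusted p = 0.190), and 0 lower, where 22.7% of all genes passed in either direction. In TPM with 1 added, Egln3 was 1.48-fold higher in both untreated and treated TJ cells, and Hif1a 1.45- and 1.29-fold. Ankrd37 was 2.02-fold higher in TJ cells under rapamycin only.

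The other genes of the pathway were read from a list of 20 HIF regulators and a list of 61 other hypoxia targets, which share 3 genes (Cited2, Siah2 and Wsb1), so these are counted and plotted in both. Of 19 regulators tested, 5 were called higher with rapamycin, 4 lower and 10 neither, with a median log2 fold change of -0.01. Beside the 17.5% higher and 17.4% lower over all genes, these counts are near the background, so the values below describe single genes. The 4 that fell were Siah2 (log2 fold change -0.92, adjusted p = 0.000656), a ubiquitin ligase for EGLN proteins, Cul2 (-0.63, adjusted p = 0.00193) and Tceb1 (-0.49, adjusted p = 0.00609), which are parts of the VHL ligase, and Siah1a (-0.52, adjusted p = 0.00577), each by edgeR. The 5 that rose were Cited2 (0.9998, adjusted p = 0.00114), which competes with HIF-alpha for the coactivators, the coactivators Ep300 (0.52, adjusted p = 0.00742) and Crebbp (0.43, adjusted p = 0.0123) themselves, Wsb1 (0.50, adjusted p = 0.00751), a ligase subunit that acts on VHL, and Egln2. Vhl, Arnt and the asparaginyl hydroxylase gene Hif1an were not called. Without the replicate block, 1 regulator was called higher and 2 lower, in a fit that called 559 of all genes higher and 716 lower.

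Of 51 other hypoxia targets tested, 29 were called lower with rapamycin, 8 higher and 14 neither, beside 17.4% lower and 17.5% higher over all genes, with a median log2 fold change of -0.69. The largest falls were those of Slc16a3, a lactate exporter (-2.83, SE 0.377, adjusted p = 0.000448), Ero1l, an oxidase of protein folding (-2.38, SE 0.128, adjusted p = 4.64e-06), and Car9, a carbonic anhydrase used as a hypoxia marker (-1.87, SE 0.147, adjusted p = 2.24e-05), by edgeR on the log2 scale. Slc16a3 went from 31.5 to 1.73 TPM in MKOC and from 29.5 to 8.21 TPM in TJ cells. The largest rises were those of Angptl4, a lipoprotein lipase inhibitor (3.71, SE 0.386, adjusted p = 0.000111), and Edn1, the endothelin-1 precursor (1.82, SE 0.110, adjusted p = 6.36e-06). Angptl4 was low, at 0.255 to 2.37 TPM in MKOC and 0.174 to 3.08 TPM in TJ cells. Edn1 rose from 12.99 to 43.9 TPM in MKOC and from 32.2 to 120 TPM in TJ cells. Without the replicate block, 21 targets were called lower and 3 higher, in a fit that called 716 of all genes lower and 559 higher. Without that term and without untreated MKOC, treated MKOC, untreated TJ or treated TJ cells, 10, 15, 0 and 23 were lower, in fits that called 60, 291, 0 and 246 of all genes lower.

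**Figure D5:**
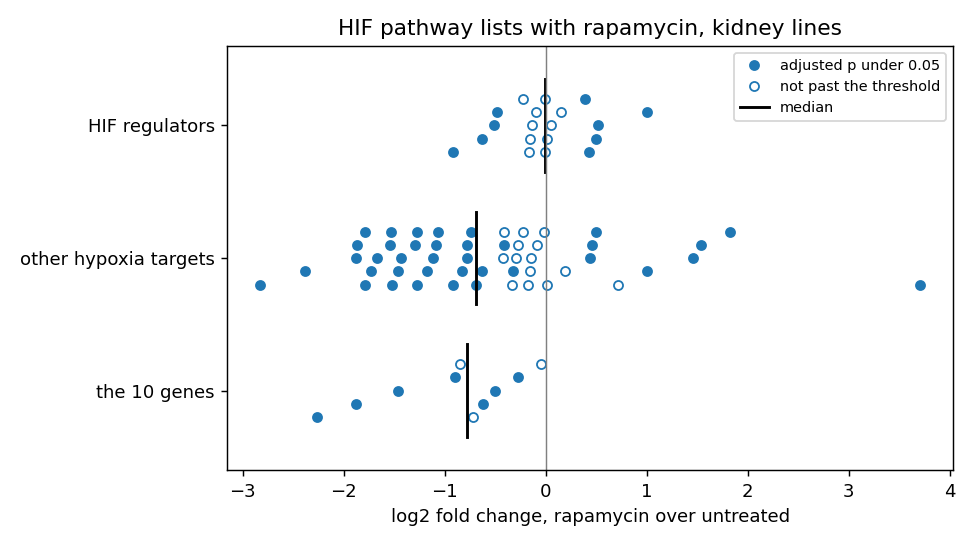
Log2 fold change with rapamycin of each tested gene among the 10 genes, 51 other hypoxia targets and 19 HIF regulators (horizontal axis; vertical spread within a list only separates points), filled where adjusted p is under 0.05, with the median as a black line. The medians lie at -0.78, -0.69 and -0.01.

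Without the 3 shared genes, 28 of 48 targets were called lower with rapamycin and 6 higher, and 3 of 16 regulators lower and 3 higher.

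A list of 21 relatives and partners of the 10 genes had 16 members tested, of which 3 were called higher with rapamycin and 3 lower, near the shares of 17.5% and 17.4% over all genes. By level, the highest after P4hb were Ankrd1 (at most 586 TPM), a cardiac-type ankyrin repeat protein gene, Fkbp8 (200 TPM), a mitochondrial immunophilin gene, and Bnip2 (142 TPM). Ankrd1 was called higher (log2 fold change 1.48, adjusted p = 3.06e-05, edgeR), as was Pink1, the mitophagy kinase (1.61, adjusted p = 6.59e-05, edgeR), with Egln2 as the third. Besides Ndrg2, the mitophagy receptor Bcl2l13 (-0.32, adjusted p = 0.0404, edgeR) and Sim1 (-0.80, adjusted p = 0.0315, edgeR) were called lower.

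In the MEFs, 24 of 56 other targets with at least 1 TPM were at least 2-fold higher in Tsc2-/- cells and 1 was lower, beside 25.2% and 5.18% over all genes. After scaling, 17 were higher and 3 lower, beside 17.1% and 8.72%. The largest folds, with 1 TPM added, were those of Vldlr, a lipoprotein receptor, from 0.00407 to 79.0 TPM (79.7-fold), Loxl2, a matrix cross-linking oxidase, from 0.138 to 75.6 TPM (67.2-fold), and Slc16a3, from 0.723 to 49.5 TPM (29.3-fold). The smallest were those of Stc2, a secreted stanniocalcin, from 34.0 to 15.5 TPM (0.472-fold), Car9, from 5.604 to 2.48 TPM (0.527-fold), and Wsb1, from 203 to 126 TPM (0.624-fold). Car9 and Wsb1 were thus lower in Tsc2-/- MEFs, unlike the median target at a log2 fold of 0.82, beside 0.45 over all genes. After scaling, the log2 folds were -1.46 for Stc2, -1.26 for Car9 and -1.07 for Wsb1. The median target then stood at 0.44, beside 0.10 over all genes. Of 19 regulators, 5 were 2-fold higher and 0 lower, and 1 and 2 after scaling, where the share over all genes was 25.2% higher and 5.18% lower, and 17.1% and 8.72% after scaling. The unscaled count of higher regulators is near that share.

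Across the 6 libraries, the patterns of the 10 genes were alike to different degrees, given here as a description over libraries that share lines and treatments. Of the 45 pairs, 14 had a Pearson correlation of log2(TPM + 1) over 0.8 and 10 were below 0, with a median of 0.63. Egln1 and Egln3 were most alike (r = 0.99). Among genes with at least 10 TPM in a library, the patterns most like Hif1a were those of Pgm2, Ppif and Zfp191 (r from 0.994 to 0.997), and those most like Epas1 were Bag2, Sdc1 and Hk1 (each r = 0.99). Egln3 was most like Yme1l1, Pex11a and Sdha (r from 0.995 to 0.999), and Bnip3 most like Pkm, Slc25a15 and Abhd17b (r from 0.991 to 0.996). With 6 points and 10114 genes compared, high values of r arise readily.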

How the data were processed

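Poly(A)-selected RNA of the 6 libraries was sequenced as paired-end reads, which the authors trimmed with Trimmomatic 0.32 and quantified with Kallisto (version not given in the sources used here). The methods name a human reference, but the 88198 identifiers in the table are those of mouse transcripts. The authors deposited an estimated count, a TPM value, a length and an effective length per transcript and library. A further deposited ratio, the authors' own fold change of the MEFs, was used only for its gene symbols. Symbols were missing for 1006 transcripts, holding 0.372% to 0.468% of a library's counts, which were left out of sums and tests, and the first symbol was kept for 8 transcripts that had 2. Positions come from GENCODE M21 (GRCm38), which held 86119 of the identifiers. No column lacked a sample.

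Estimated counts and TPM were summed per symbol. For rapamycin, the rounded sums passed through filterByExpr and TMM normalization, and edgeR's quasi-likelihood model held treatment and line (the replicate block), with Benjamini-Hochberg adjustment over all genes at 0.05. The line names in the labels pair the libraries, and across 12952 genes the libraries of a line deviated together from their treatment means (r = 0.61). Nothing states separate cultures, so p-values measure the spread between these libraries. The lines are the only replicates of a treatment, and in the test of the line term the untreated and treated library of a line take that place. For the MEFs and for TJ against MKOC, TPM with 1 added was compared and a gene called at 2-fold. Counting intervals are 95% (Wilson for levels, exact for ratios), and with the floor of 3 counts they cover counting error only. Fold changes with 1 TPM added understate changes of low genes. Promoter windows come from RefSeq (GRCm38.p6).

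The members and lists were chosen with earlier results of these data known. The genes named are the 10 members, the HIF regulators called with rapamycin, the 3 called targets with the largest rise and fall, the 3 targets with the largest and smallest fold in the MEFs, relatives of a member (the highest by level, those called, and for Hif1a, Ndrg1 and P4ha1 the rest of the family, picked after their values were seen), and the 3 genes most like Hif1a, Epas1, Egln3 and Bnip3. One target that this rule names is not reported here. Alternatives were other normalizations, DESeq2, limma on log2(TPM + 1), other filters, pseudocounts of 0.1, 0.5 and 5 TPM, scaling, CPM, other fold thresholds, leaving out short transcripts, and leaving out each kidney library. A test of the line term for TJ against MKOC and sums over protein-coding transcripts were added after the data were seen. Scripts were tested on simulated data. Tests ran in edgeR 4.0.16, DESeq2 1.42.0 and limma 3.58.1 under R 4.3.3, and other steps in scipy 1.17.1, pandas 2.3.3, numpy 2.4.6 and matplotlib 3.10.9 under Python 3.11.15.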

Additional observations from a re-analysis of the deposited data

How the results depend on the processing

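Without the replicate block (the line term that pairs the libraries), 4 of the 10 genes were called lower with rapamycin in place of 7, with Egln1 (adjusted p = 0.0624), P4ha2 (0.0539) and Bnip3l (0.163) lost, and 559 genes in all were called higher and 716 lower in place of 2267 and 2259. Without that term and without each kidney library in turn, between 0 and 5 of the 10 were lower, where the fits called between 0 and 291 genes lower in all; the fit without untreated TJ cells called none. With the term kept, leaving out a library leaves the value of the other line and no test. Bnip3l lost its call also with upper-quartile scaling, library size alone, DESeq2, limma and no filter. Ankrd37 gained a call with no filter (adjusted p = 0.0215) and with protein-coding transcripts only. Hif1a, Egln3, Bnip3 and P4ha1 were called lower under each of the 9 tested alternatives with all 4 libraries. DESeq2 called 1393 genes higher, and 3 HIF regulators higher in place of 5, where limma called 2. In the MEFs, the count of 4 genes 2-fold higher, beside 25.2% of all genes, became 2 with CPM (17.2%), 2 at a threshold of 4-fold (7.27%), 3 after scaling (17.1%) or without short transcripts (20.1%), 6 at 1.5-fold (42.8%) and 5 with 0.1 TPM added, where Epas1 joined from below the minimum (28.6%); it stayed at 4 with 0.5 (27.0%) or 5 TPM added (14.3%). None was lower. The 4 that were also lower with rapamycin became 2 with CPM and 3 after scaling or without short transcripts, settings added after the data were seen. With a test of the line term, added after the data were seen, 2 of the 10 were called higher in TJ than in MKOC cells in place of 0. The causes were not tested. The 1-library MEF comparison and the low counts of Epas1 and Ankrd37 limit what can be read from these genes.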
